A study of Mus musculus with 12 samples.

Results

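RNA of control dentate gyrus (DG) was compared with RNA of control subventricular zone (SVZ), the 2 neurogenic regions sampled in a study of the chromatin protein Dpy30 in mouse brain. The comparison rests on 6 of the 12 libraries of the series, 3 DG control and 3 SVZ control. They are named a, b and c in the order of their table columns, names that pair nothing across tissues. Each sample held neural stem and progenitor cells (NSC/NPC) with the cells around them, so that neurons, glia, vessels and meninges all contribute RNA. Both control groups had the genotype hGFAP/+;Dpy30F/+, in which an hGFAP transgene and 1 floxed copy of Dpy30 are present in the controls as well. The KO animals of the series, hGFAP/+;Dpy30F/-, are used here only as a second view of the tissue difference, from other libraries. The labels give neither an age nor which libraries came from separate animals, so a p-value reflects only how far these libraries scatter, part of which may be technical. The members were found by summing the transcript rows of the DG table and of the SVZ table per gene name, joining the tables on that name and keeping those whose mean over the 6 libraries reached 0.5 FPKM (read fragments relative to transcript length and library size). Of 17973 joined genes, 15189 were kept.

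The dentate gyrus is the hippocampal field in which granule neurons are added after birth. Its stem cells are descended from the pallium, the dorsal forebrain, and give rise to glutamatergic cells that express the transcription factor Prox1. The subventricular zone lines the lateral ventricle beside the striatum, and most of its neuroblasts become GABAergic interneurons of the olfactory bulb under subpallial factors such as the Dlx genes. The tissue beside each niche also differs, with hippocampal pyramidal neurons around the DG, and with striatal projection neurons, which carry the dopamine receptors Drd1 and Drd2, and myelinated fibre tracts around the SVZ.

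The 6 libraries were of similar depth, with 26.7 to 46.0 reads behind 1 FPKM in a transcript of 1 kb, and the library labelled DG b was the shallowest. By Xist and Kdm5d, a gene of the Y chromosome, DG c and SVZ a came from females and the remaining 4 libraries from males, and 0 of the 4 sex genes tested were called in either fit. The 2 tables had been scaled separately, and each column was therefore centred on its median log2(FPKM + 1), which lay between 2.953 and 3.007 before centring. Any difference between the tables other than a factor per column cannot be told apart from tissue. Folds below are ratios of mean FPKM across these separately scaled tables, and log2 differences are DG minus SVZ on the centred log2(FPKM + 1) scale, which understates differences of genes at low FPKM. In bulk RNA, fewer cells of a type and less RNA per cell cannot be told apart.

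The label of each tissue was checked first against marker genes of the hippocampus and the striatum. Ppp1r1b, which encodes DARPP-32 of striatal projection neurons, was at 19.3 FPKM in DG a, 353 FPKM in the library labelled DG b and 8.98 FPKM in DG c, against 156, 201 and 279 FPKM in the SVZ libraries. Drd2 was at 1.36, 17.8 and 1.09 FPKM in the DG libraries in that order, against 14.7, 11.8 and 15.1 FPKM. The library labelled DG b thus held both striatal genes above every SVZ library, whereas DG a and DG c lay far below. The reverse held for genes of the hippocampus. Fibcd1, a marker of CA1 pyramidal neurons, was at 20.3, 3.03 and 22.2 FPKM in the DG libraries against 1.73, 2.19 and 2.37 FPKM in the SVZ. C1ql2, a secreted synaptic protein of granule neurons, was at 5.53, 0.356 and 9.88 FPKM against 0.226, 0.297 and 0.750 FPKM. Prox1 was at 2.296, 0.963 and 10.7 FPKM against 2.14, 1.51 and 1.71 FPKM, so that DG c alone stood clearly above the SVZ libraries in this defining marker of granule neurons. The markers of the labelled tissue were therefore at or near the SVZ level in the library labelled DG b. In DG a, C1ql2 was above every SVZ library, and Prox1 was close to SVZ a.

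**Figure D1:**
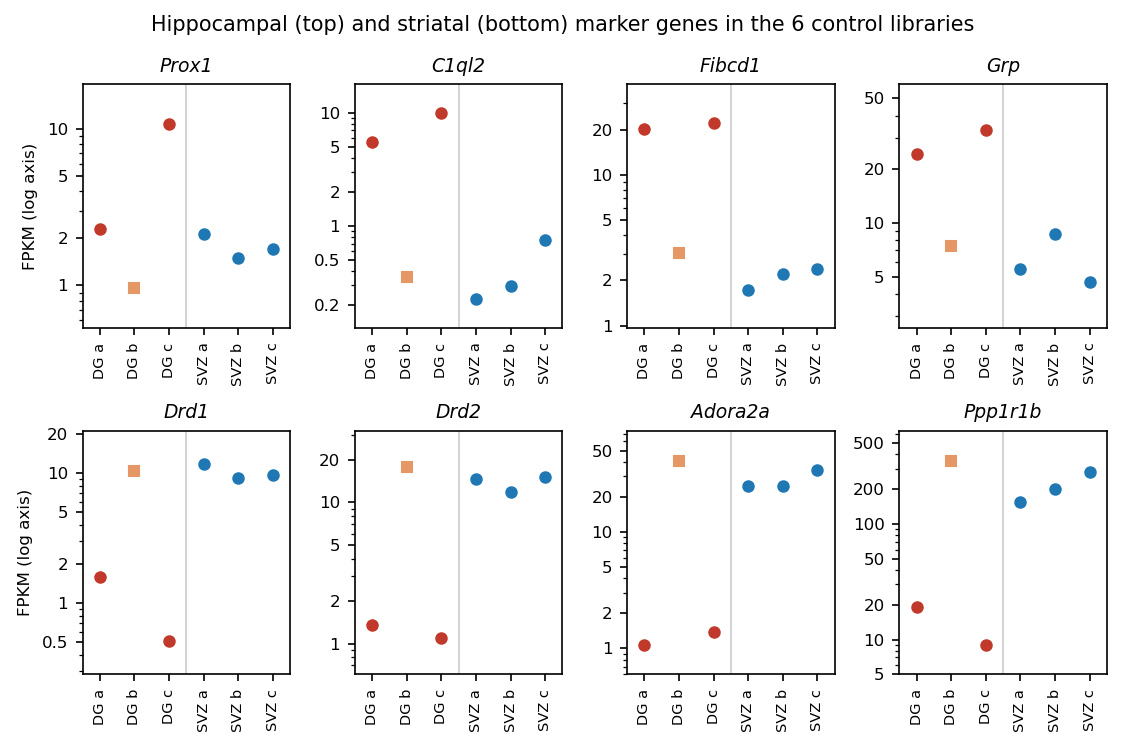
FPKM on a log axis in each of the 6 control libraries (DG red, SVZ blue, the library labelled DG b as an orange square) for 4 hippocampal genes, top, and 4 striatal genes, bottom. The orange square lies with the SVZ libraries in C1ql2 and Grp, just above them in Fibcd1, below them in Prox1 and level with or above them in the 4 striatal genes.

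The same library stood apart across all genes. Pearson's r across 15189 genes, which are not independent replicates, was 0.962, 0.987 and 0.977 between the library labelled DG b and SVZ a, b and c, and 0.969 with DG a and 0.976 with DG c. That library was thus closest to SVZ b, about as close to SVZ c as to DG c, and least close to SVZ a, whereas DG a and DG c reached 0.984 with each other. The first principal component, with 60.8% of the variance, placed DG a at -37.1, the library labelled DG b at -3.9 and DG c at -29.2, against 39.1, 11.8 and 19.3 for SVZ a, b and c. Of 561 genes in which DG a and DG c differed from the SVZ mean by at least 1 log2 unit with no overlap, the library labelled DG b was nearer to the SVZ in 367 (65.4%). Its median position was 0.33 on a scale on which the SVZ mean is 0 and the mean of DG a and DG c is 1. Since DG a and DG c had served to choose these genes, the measure was repeated for each of them, with genes chosen by the other DG libraries. With DG a held out, it was nearer to the SVZ in 15 of 186 genes (8.06%) with a median position of 1.14, and with DG c held out in 20 of 205 (9.76%) with a median of 1.04, where the library labelled DG b was among the choosing pair. For the library labelled DG b the median was 0.34 in the 268 genes that were higher in DG a and DG c and 0.33 in the 293 that were lower. Results are therefore given with all 6 libraries and with the 5 libraries that remain without it (the 6-library and the 5-library fit). That library was singled out after its values were seen, and the 5-library fit is not an independent test of the regional markers that served to single it out. Nor is it one of the 561 genes that placed that library, among them Mbp, Slc1a2, Tubb2b, Reln and Egr1 of the lists below.

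**Figure D2:**
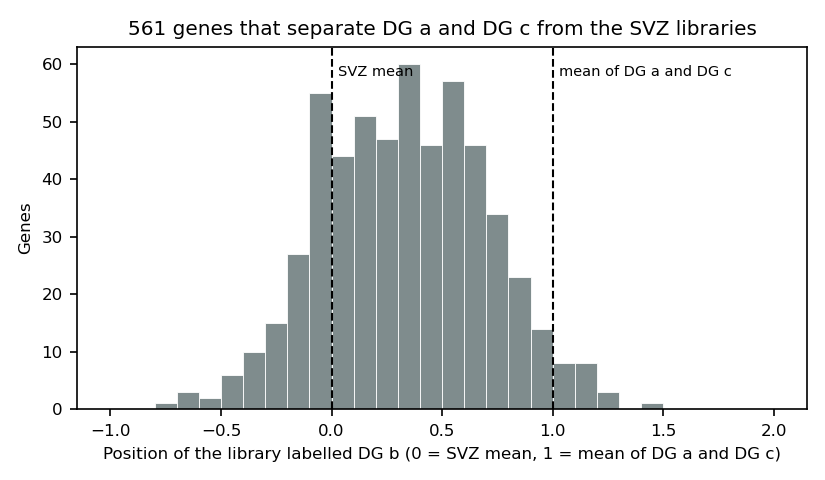
Histogram of the position of the library labelled DG b in 561 genes, where 0 is the SVZ mean and 1 the mean of DG a and DG c. The median position is 0.33, and 367 of the genes lie nearer to the SVZ mean.

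With all 6 libraries, 10 of 15189 genes (0.0658%) passed an adjusted p of 0.05 in limma, 5 higher in the DG (0.0329%) and 5 lower (0.0329%). These few calls stood beside 4723 genes at an unadjusted p under 0.05 and 2542 at an adjusted p under 0.1, of which 1234 were higher and 1308 lower in the DG. The lowest adjusted p of the table was 0.022. The groups did not overlap in 5821 genes (38.3%), 2827 of them higher in the DG (18.6%) and 2994 lower (19.7%). All 10 genes were also called in the 5-library fit, whose libraries are a subset of the 6. In each of the 10 genes the library labelled DG b lay on the DG side of all SVZ libraries. Neither observation is a separate test of these genes. Leaving out 1 library moved the count strongly, to 1657 without the library labelled DG b, 686 without SVZ b, 2 without DG c and 0 without DG a, SVZ a or SVZ c.

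The 5 genes that were lower in the DG were Mt2, Gjb6, Mertk, Luzp2 and Acot11. Mt2 (chromosome 8 of GRCm38, 94172664 to 94173568, plus strand) encodes a metallothionein, a small protein that binds zinc and copper. It was at 16.1, 17.3 and 23.7 FPKM in the DG libraries and at 66.1, 65.7 and 64.9 FPKM in the SVZ libraries. Its mean was 19.1 ± 4.11 FPKM in the DG and 65.6 ± 0.581 FPKM in the SVZ (SD, n = 3 in each). Every DG library was below every SVZ library, by 3.44-fold between the means, and the log2 difference was -1.76 (SE 0.14, limma adjusted p = 0.022). Its neighbour Mt1 (chromosome 8, 94179082 to 94180327) was at 55.5, 58.0 and 68.9 FPKM against 138, 117 and 159 FPKM. Mt1 also separated the tissues in every library, 2.27-fold, but just missed the threshold with an adjusted p of 0.0506 (log2 difference -1.17, SE 0.14) and was called in the 5-library fit (adjusted p = 0.011). Mt3, the metallothionein of neurons and astrocytes in the same cluster, overlapped between the tissues at 321, 318 and 449 FPKM against 333, 395 and 467 FPKM (log2 difference -0.15, SE 0.18, adjusted p = 0.59). Mt1 and Mt3 were singled out as neighbours of Mt2 after the values were seen.

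Metallothionein promoters are textbook targets of the zinc sensor MTF1, which binds the core of the metal response element. The promoter windows of Mt2 and Mt1, the pair of neighbours that was lower in the DG, are shown for this reason, from 250 bases before to 50 bases after the RefSeq start (GRCm38.p6, plus strand, chr8:94172368-94172667 and chr8:94178839-94179138). Capitals mark matches to TGCGCNC or TGCACNC on either strand, none of which overlapped another.
Mt2: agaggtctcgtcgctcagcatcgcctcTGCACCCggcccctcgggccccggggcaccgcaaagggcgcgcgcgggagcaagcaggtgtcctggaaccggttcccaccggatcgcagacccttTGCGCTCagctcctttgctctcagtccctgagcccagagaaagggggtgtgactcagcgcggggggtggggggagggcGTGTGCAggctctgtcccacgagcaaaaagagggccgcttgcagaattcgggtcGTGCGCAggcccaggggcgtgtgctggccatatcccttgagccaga
Mt1: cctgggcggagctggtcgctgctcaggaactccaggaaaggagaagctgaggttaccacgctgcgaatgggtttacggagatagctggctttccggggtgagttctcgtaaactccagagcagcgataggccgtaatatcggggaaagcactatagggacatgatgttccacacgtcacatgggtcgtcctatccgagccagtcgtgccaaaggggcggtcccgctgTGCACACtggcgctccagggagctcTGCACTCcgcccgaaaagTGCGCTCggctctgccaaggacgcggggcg
The Mt2 window held 4 matches and the Mt1 window 3. Of 32851 RefSeq promoter windows of this length, 25.7% held at least 1 match, 1.97% held 3 or more and 0.517% held 4 or more. These matches describe the sequence and were not tested as binding sites.

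Gjb6 (chromosome 14, 57123303 to 57133611, minus strand) encodes connexin 30, a gap junction protein of astrocytes. It was at 12.2, 11.6 and 12.0 FPKM in the DG and at 40.1, 30.8 and 40.8 FPKM in the SVZ, 3.13-fold lower in the DG with a log2 difference of -1.56 (SE 0.13, limma adjusted p = 0.022). Mertk (chromosome 2, 128698956 to 128802894, plus strand), a receptor tyrosine kinase through which astrocytes and microglia engulf debris, was at 2.82, 3.78 and 3.36 FPKM in the DG against 10.5, 8.39 and 10.2 FPKM (log2 difference -1.32, SE 0.13, adjusted p = 0.029). The other astrocyte connexin, Gja1, was at 53.0, 53.1 and 65.6 FPKM against 74.9, 82.9 and 90.6 FPKM and was not called (log2 difference -0.54, SE 0.12, adjusted p = 0.065), although the libraries of the tissues did not overlap. Luzp2, a leucine zipper protein (chromosome 7, 54835498 to 55268885, plus strand), was at 14.1, 13.9 and 12.99 FPKM in the DG against 33.6, 27.3 and 31.1 FPKM (log2 difference -1.11, SE 0.11, adjusted p = 0.029). Acot11, an acyl-CoA thioesterase that releases fatty acids from coenzyme A (chromosome 4, 106744555 to 106804998, minus strand), was at 2.93, 3.26 and 3.33 FPKM against 7.68, 6.49 and 8.09 FPKM (log2 difference -1.02, SE 0.11, adjusted p = 0.048). In Gjb6, Mertk, Luzp2 and Acot11 as well, each DG library lay below each SVZ library.

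The 5 genes that were higher in the DG were Fasn, Mfap2, Erdr1, n-R5s141 and Gm17383. Fasn (chromosome 11, 120805846 to 120824547, minus strand), the fatty acid synthase, was at 64.4, 64.3 and 70.8 FPKM in the DG and at 30.1, 35.4 and 37.1 FPKM in the SVZ. The means differed 1.94-fold, with a log2 difference of 0.94 (SE 0.10, limma adjusted p = 0.048). Mfap2 (chromosome 4, 141010418 to 141015984, plus strand), a protein of the microfibrils around elastic fibres, was at 5.54, 4.32 and 5.45 FPKM against 1.55, 1.03 and 1.28 FPKM (3.96-fold, log2 difference 1.41, SE 0.14, adjusted p = 0.029). Both genes kept the library labelled DG b close to the other DG libraries.

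Of these 5, Erdr1, n-R5s141 and Gm17383 are uncertain, because near-identical copies can share their reads. Erdr1 lies in the region that the X and Y chromosomes share and was at 102, 114 and 143 FPKM in the DG against 12.99, 21.9 and 10.005 FPKM in the SVZ (8.02-fold, log2 difference 2.97, SE 0.26, limma adjusted p = 0.022). The gene n-R5s141 is annotated as a ribosomal 5S RNA (chromosome 8, 123608320 to 123608438, minus strand), a transcript without the polyA tail on which these libraries were selected. It was at 6.39, 4.81 and 10.5 FPKM against 0.362, 0.501 and 0.219 FPKM (log2 difference 2.53, SE 0.23, adjusted p = 0.022). Gm17383 is annotated as a processed pseudogene (chromosome 18, 82338462 to 82339816, plus strand) and was at 65.1, 54.6 and 65.7 FPKM against 20.9, 25.2 and 25.5 FPKM (log2 difference 1.33, SE 0.12, adjusted p = 0.022).

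**Figure D3:**
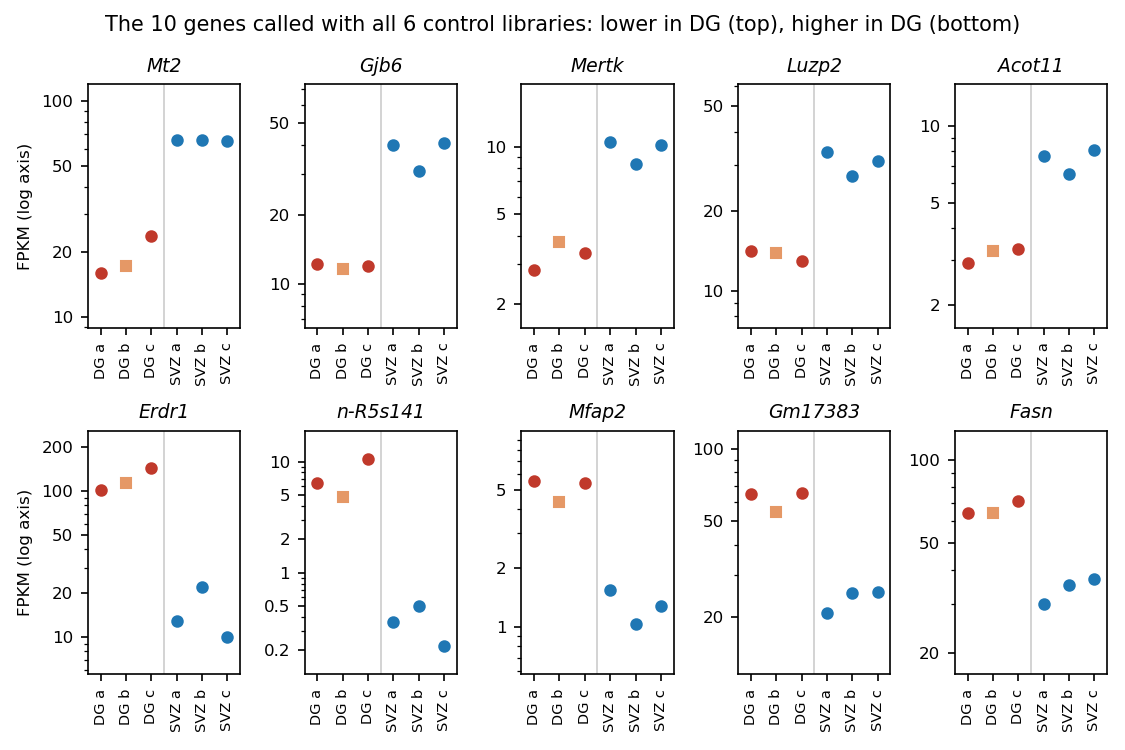
FPKM on a log axis in each of the 6 control libraries for the 10 genes called with all of them, 5 lower in the DG (top) and 5 higher (bottom). Points are libraries (DG red, SVZ blue, the library labelled DG b as an orange square), and the tissues do not overlap in any of the 10 panels.

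In the 5-library fit, 1657 genes (10.9%) were called, 762 higher in the DG (5.02%) and 895 lower (5.89%), with 2 DG against 3 SVZ libraries. The libraries of the tissues did not overlap in 8211 genes (54.1%), 4034 higher (26.6%) and 4177 lower (27.5%), shares against which the counts of members below are to be read. The median log2 difference of all genes was 0.00163 with 6 libraries and 0.00381 with 5. Of 30 genes named by size in the 5-library fit, 15 were higher in the DG, led by Cpne7, Erdr1 and Fibcd1, and 15 were lower, among them Mal, Mobp, Mog, Mbp, Ermn, Trf, Cldn11 and Ugt8a of the myelin list and Scn4b, Ppp1r1b, Adora2a, Penk and Rgs9 of the striatal list.

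Genes of myelinating oligodendrocytes, the cells that wrap axons, showed the lowest median of the lists. All 20 members tested were lower in every DG library than in every SVZ library, the library labelled DG b included. Mbp, a structural protein that compacts myelin, was at 135, 1435 and 431 FPKM in the DG against 2923, 1679 and 3105 FPKM in the SVZ. Mal, a lipid-raft protein of myelin, was at 1.59, 19.7 and 3.10 FPKM against 195, 45.8 and 127 FPKM, and Mog, a glycoprotein of the outer myelin surface, at 1.28, 26.5 and 5.46 FPKM against 78.3, 40.3 and 69.6 FPKM. The library labelled DG b lay below SVZ b and above both other DG libraries in each of these genes, and DG a was the lowest library. With 6 libraries the list's median log2 difference was -2.28 and 0 of 20 were called, with adjusted p-values of 0.064 for Mal, 0.090 for Mbp and 0.072 for Mog. With 5 libraries the median was -2.86 and 20 of 20 were called lower, among them Mal (52.3-fold, log2 difference -5.03, SE 0.54, limma adjusted p = 0.0052), Mog (18.6-fold) and Mbp (9.08-fold, adjusted p = 0.011). Myrf, the transcription factor that drives myelin genes, was also lower, at 2.06, 7.51 and 3.50 FPKM against 12.4, 8.34 and 11.2 FPKM (5-library log2 difference -1.65, SE 0.21, adjusted p = 0.0089). The summed level of the list was 269, 2552 and 769 FPKM in the DG libraries and 6459, 3202 and 5740 FPKM in the SVZ libraries.

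Earlier cells of the oligodendrocyte lineage did not show a difference of that size. The precursor list of 15 genes had a median of 0.00 with 6 libraries and -0.12 with 5. Olig2, the transcription factor of the whole lineage, was at 19.5, 23.4 and 21.3 FPKM in the DG against 16.6, 17.3 and 23.1 FPKM in the SVZ (5-library log2 difference 0.10, SE 0.16). In the 5-library fit, Cspg4, the NG2 proteoglycan that marks precursors and pericytes, was called higher at 6.66, 5.55 and 6.46 FPKM against 2.67, 3.76 and 3.37 FPKM (log2 difference 0.82, adjusted p = 0.019). Bcas1, a gene of oligodendrocytes that begin to myelinate, was called lower at 24.2, 65.1 and 45.2 FPKM against 82.5, 70.9 and 82.2 FPKM (log2 difference -1.23, adjusted p = 0.022).

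Astrocyte genes were lower in the DG by a similar amount in all DG libraries. The 20 genes had a median log2 difference of -0.51 with 6 libraries and -0.51 with 5, and the library labelled DG b alone gave -0.52 against the SVZ. In 12 of 20 every DG library was below every SVZ library (background 19.7%). Slc1a2, the main glutamate transporter, was at 83.1, 134 and 127 FPKM in the DG against 265, 208 and 228 FPKM in the SVZ. Glul, the glutamine synthetase, was at 163, 226 and 244 FPKM against 454, 324 and 483 FPKM, and S100b, a calcium-binding protein, at 17.0, 24.0 and 20.02 FPKM against 59.2, 33.4 and 60.3 FPKM. None of these 3 genes overlapped between the tissues. With 6 libraries Gjb6 alone was called, and the adjusted p was 0.064 for Slc1a2, Glul and S100b. With 5 libraries 7 of 20 were called lower, Slc1a2 (log2 difference -1.18, SE 0.20, limma adjusted p = 0.017), Glul (-1.06, adjusted p = 0.032), S100b (-1.38, adjusted p = 0.021), Gjb6, Acsl3, Aldoc and Slc4a4. Members of the list did not move as a block. Slc7a10, an amino acid transporter, was higher in every DG library at 20.1, 23.8 and 23.4 FPKM against 8.97, 15.5 and 17.7 FPKM, without being called (adjusted p = 0.099), and Aqp4, the water channel of astrocyte endfeet, overlapped at 19.4, 18.9 and 25.7 FPKM against 25.6, 23.8 and 24.8 FPKM. The summed level of the list was 1208, 1402 and 1510 FPKM in the DG and 2257, 1937 and 2509 FPKM in the SVZ.

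Microglial genes were lower in DG a and DG c as well. The 20 genes had a median of -0.41 with 6 libraries, 8 of them without overlap and lower, and of -0.55 with 5 libraries, 18 without overlap (background 27.5%) and 6 called. P2ry12, a purine receptor of resting microglia, was at 14.3, 23.0 and 17.8 FPKM in the DG against 33.6, 29.1 and 33.4 FPKM in the SVZ (5-library log2 difference -0.97, SE 0.14, limma adjusted p = 0.010). Ctss, a lysosomal protease, was at 11.5, 16.5 and 12.3 FPKM against 35.4, 20.3 and 37.7 FPKM (-1.28, adjusted p = 0.024). Tmem119, P2ry13 and Gpr34 were also among the called genes. The library labelled DG b alone gave a list median of -0.18.

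The striatal list was low in DG a and DG c and not in the library labelled DG b. Its summed level was 236, 1273 and 196 FPKM in DG a, b and c and 935, 925 and 1133 FPKM in the SVZ. Adora2a, the adenosine receptor of striatopallidal neurons, was at 1.08, 40.9 and 1.39 FPKM in the DG against 24.6, 24.9 and 34.1 FPKM. Drd1, the dopamine receptor of striatonigral neurons, was at 1.60, 10.5 and 0.508 FPKM against 11.8, 9.17 and 9.72 FPKM, and Scn4b, a sodium channel subunit, at 0.207, 30.4 and 0.565 FPKM against 42.6, 25.2 and 34.9 FPKM. DG a and DG c lay below the SVZ libraries in each of these genes, and the library labelled DG b within or above them. With 6 libraries the median of the 22 genes was -1.17, 0 were called and only Tac1, the precursor of substance P, was lower in every DG library. With 5 libraries the median was -1.89 and 20 of 22 were called lower, all but Pdyn and Rasgrp2. Since the list holds the genes that set that library apart, this count describes DG a and DG c.

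Subpallial transcription factors followed the striatal list. Of 18 tested, 6 were called lower in the 5-library fit, Meis2, Foxp1, Foxp2, Pbx3, Dlx6 and Six3, all of which are factors of striatal development or of its neurons. Foxp2 was at 0.320, 3.41 and 0.306 FPKM in the DG against 4.14, 3.52 and 3.34 FPKM in the SVZ, and Dlx6 at 1.48, 5.15 and 1.58 FPKM against 5.26, 5.17 and 5.91 FPKM. The library labelled DG b was at the SVZ level in both.

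Genes of hippocampal pyramidal neurons and pallial factors were higher in DG a and DG c. Grp, which encodes gastrin-releasing peptide, was at 24.2, 7.40 and 33.2 FPKM in the DG against 5.51, 8.67 and 4.63 FPKM in the SVZ. Of the 17 genes of CA pyramidal neurons, 7 were called higher and 0 lower with 5 libraries, Fibcd1 (10.1-fold), Grp (4.58-fold), Lypd1, Grik4, Nr3c2, Amigo2 and Iyd, and the median was 0.37 with 6 libraries and 0.65 with 5. Genes of the hippocampus, Fibcd1 among them, served to single out the library labelled DG b, so the CA count describes DG a and DG c. Of 16 pallial factors, 5 were called higher, Bhlhe22, Neurod1, Neurod2, Fezf2 and Zfpm2. Bhlhe22, a bHLH factor of glutamatergic neurons, was at 39.3, 17.5 and 42.7 FPKM against 10.3, 15.9 and 14.3 FPKM, with all DG libraries above the SVZ (5-library log2 difference 1.54, SE 0.17, limma adjusted p = 0.0060). Tbr1, a factor of deep-layer cortical neurons, was the single pallial gene called lower, at 9.21, 18.4 and 12.2 FPKM against 25.3, 21.7 and 18.5 FPKM (-0.98, SE 0.17, adjusted p = 0.019).

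The granule neuron list showed no common direction. The 17 genes had a median of -0.07 with 6 libraries and 0.17 with 5, with 2 called higher, C1ql2 (18.2-fold) and Jun, and 2 lower, Gabrd and Pdzd2. C1ql2 had served to single out the library labelled DG b, so its call describes DG a and DG c. Gabrd, the delta subunit of extrasynaptic GABA receptors, which is abundant in mature granule neurons, was at 6.49, 26.4 and 7.63 FPKM in the DG against 22.6, 21.2 and 24.0 FPKM in the SVZ (5-library log2 difference -1.56, SE 0.12, limma adjusted p = 0.0022). The summed level of the list was 281, 276 and 269 FPKM in the DG libraries and 246, 273 and 261 FPKM in the SVZ libraries. General neuronal genes were near parity, with a list median of 0.00 with 6 libraries and -0.15 with 5. Slc17a7, the vesicular glutamate transporter of cortical and hippocampal neurons, was at 552, 405 and 511 FPKM in the DG and at 385, 462 and 470 FPKM in the SVZ, so that this transcript was abundant in both tissues. Of 6 genes of septal and cholinergic neurons, Slc5a7, Slc18a3 and Chat were called lower with 5 libraries, and of 9 thalamic and habenular genes Calb2 and Slc17a6 were called higher and Rora lower. These 6 were named because they were the only calls in those lists. Slc5a7, Slc18a3 and Chat were at low levels, with SVZ means of 1.03, 0.920 and 0.862 FPKM. In each of them the library labelled DG b lay within the SVZ libraries, at 0.955, 1.16 and 0.786 FPKM.

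Among genes of GABAergic interneurons the members went both ways. In the 5-library fit Sst, Reln, Calb2 and Htr3a, 4 of 15, were called higher, and Pvalb, Vip and Npy lower. Reln, the extracellular guidance protein of Cajal-Retzius cells and interneurons, was at 30.3, 20.1 and 25.8 FPKM in the DG against 8.60, 13.2 and 7.89 FPKM in the SVZ (log2 difference 1.43, SE 0.21, limma adjusted p = 0.012). Pvalb, the calcium buffer of fast-spiking cells, was at 2.05, 9.11 and 4.63 FPKM against 34.7, 15.1 and 30.4 FPKM (-2.67, SE 0.37, adjusted p = 0.010). For both genes the 3 DG libraries did not overlap the SVZ libraries, and with 6 libraries the adjusted p was 0.062 for Reln and 0.064 for Pvalb.

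In the neurogenic lineage, 0 of 18 genes of neuroblasts and immature neurons were called by limma with 6 libraries, and 6 of 18 were higher in the DG without overlap (background 18.6%). Tubb2b, a tubulin of growing neurites, was at 323, 137 and 378 FPKM in the DG against 68.9, 109 and 88.7 FPKM in the SVZ. Dpysl3, a collapsin response mediator of axon growth, was at 99.6, 52.4 and 108 FPKM against 13.3, 38.6 and 20.3 FPKM, and Tubb3 at 385, 308 and 420 FPKM against 134, 245 and 166 FPKM. All 3 DG libraries were above all SVZ libraries in these genes, with adjusted p-values of 0.065 to 0.068 with 6 libraries. In the 5-library fit 7 of 18 were called higher, Tubb2b (log2 difference 1.98, SE 0.20, limma adjusted p = 0.0037), Dpysl3 (2.18, adjusted p = 0.016), Tubb3 (1.18, adjusted p = 0.026), Nnat, Dpysl5, Ncam1 and Draxin, and 1 lower, the guidance receptor Robo2, while 10 were not called. The list median was 0.56 with 6 libraries and 0.73 with 5. Dcx, the microtubule protein most used to mark neuroblasts, was at 8.05, 7.89 and 11.3 FPKM against 4.89, 8.02 and 5.24 FPKM and was not called in either fit (5-library log2 difference 0.60, SE 0.21, adjusted p = 0.10).

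Among 20 genes of neural stem cells and radial glia the median was -0.04 with 6 libraries and 0.00 with 5. Fabp7, the brain lipid-binding protein of radial glia, was at 220, 142 and 216 FPKM in the DG against 64.6, 126 and 83.1 FPKM in the SVZ (5-library log2 difference 1.29, SE 0.25, limma adjusted p = 0.023), and Hopx, a marker of quiescent dentate stem cells, was also called higher. Thbs4, a secreted thrombospondin of SVZ astrocytes, was at 0.222, 0.515 and 0.777 FPKM against 2.41, 1.56 and 3.25 FPKM (-1.19, SE 0.24, adjusted p = 0.025), and Prom1, a membrane protein of SVZ stem and ependymal cells, was called lower too. Sox2, expressed in stem cells of both niches, overlapped at 20.1, 18.0 and 20.02 FPKM against 20.2, 19.3 and 26.2 FPKM. Gfap, which shares its name with the promoter of the transgene, overlapped at 61.9, 46.7 and 101 FPKM against 58.6, 51.1 and 82.2 FPKM, and its direction turned without DG c or SVZ b. Of 23 genes of the cell cycle and DNA replication, 8 were higher without overlap in both fits (background 18.6% and 26.6%), at low levels. Mcm6, a subunit of the replicative helicase, was called in the 5-library fit at 3.54, 3.40 and 4.47 FPKM against 1.84, 1.86 and 2.01 FPKM (log2 difference 0.77, SE 0.13, adjusted p = 0.017). Mki67, the proliferation marker, was at 0.758, 1.13 and 1.26 FPKM against 0.486, 0.783 and 0.618 FPKM (adjusted p = 0.21).

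**Figure D4:**
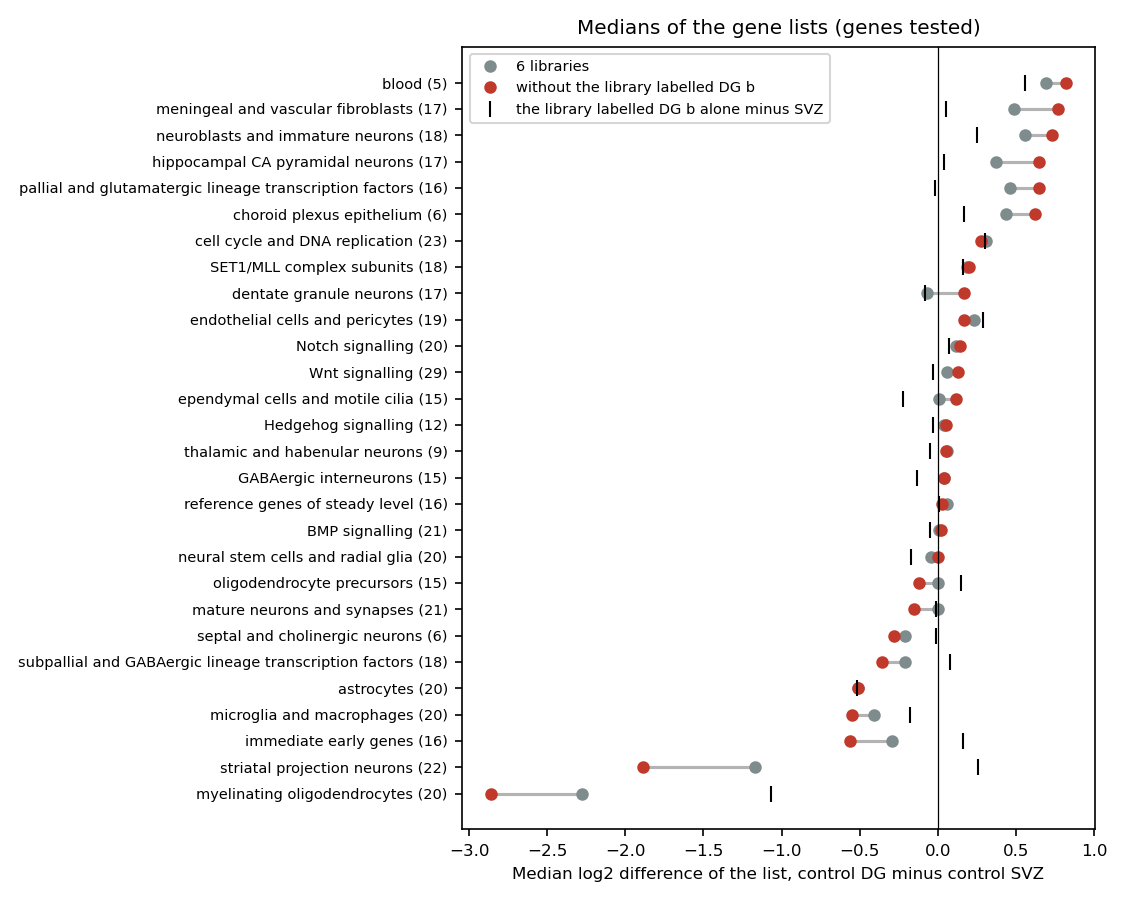
Median log2 difference, control DG minus control SVZ, of each gene list with the number of genes tested, over 6 libraries (grey), over 5 libraries without the library labelled DG b (red) and for that library alone against the SVZ (black tick). Myelin is lowest with both sets of libraries, the striatal tick lies at 0.26 on the other side of 0, and the astrocyte values coincide near -0.51.

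Markers of tissue outside the niches also differed between libraries, and their part in the differences above was not tested. The 17 fibroblast genes of meninges and vessels had a summed level of 201, 80.1 and 110 FPKM in the DG and of 56.4, 74.5 and 76.6 FPKM in the SVZ, and 6 were called higher with 5 libraries. Among these was Igf2, a growth factor of meninges and choroid plexus, at 74.4, 29.4 and 33.6 FPKM against 13.2, 21.4 and 19.9 FPKM. Dcn, Col3a1, Col1a1, Bgn and Lum, proteins of the extracellular matrix, were the others. Mfap2, called with all libraries, is a matrix gene too and is not in the list. The choroid plexus marker Ttr varied from 15.5 to 618 FPKM among the DG libraries and from 2.59 to 118 FPKM among the SVZ libraries, with DG a the highest and SVZ b the lowest. Of 6 choroid plexus genes, Sostdc1 alone was called higher with 5 libraries, and of 15 genes of ependymal cells and motile cilia 0 were called in either fit. The level of Ttr spread more within a tissue than between the tissues. Haemoglobin genes were high in all libraries, with Hba-a2 at 303, 305 and 488 FPKM against 210, 95.0 and 136 FPKM (5-library log2 difference 1.44, SE 0.34, limma adjusted p = 0.038). Of 19 genes of endothelial cells and pericytes, 3 were called higher, Vtn, Ramp2 and Tie1, and 3 lower, the transporters Slc2a1 and Slco1a4 and the surface protein Ly6c1.

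**Figure D5:**
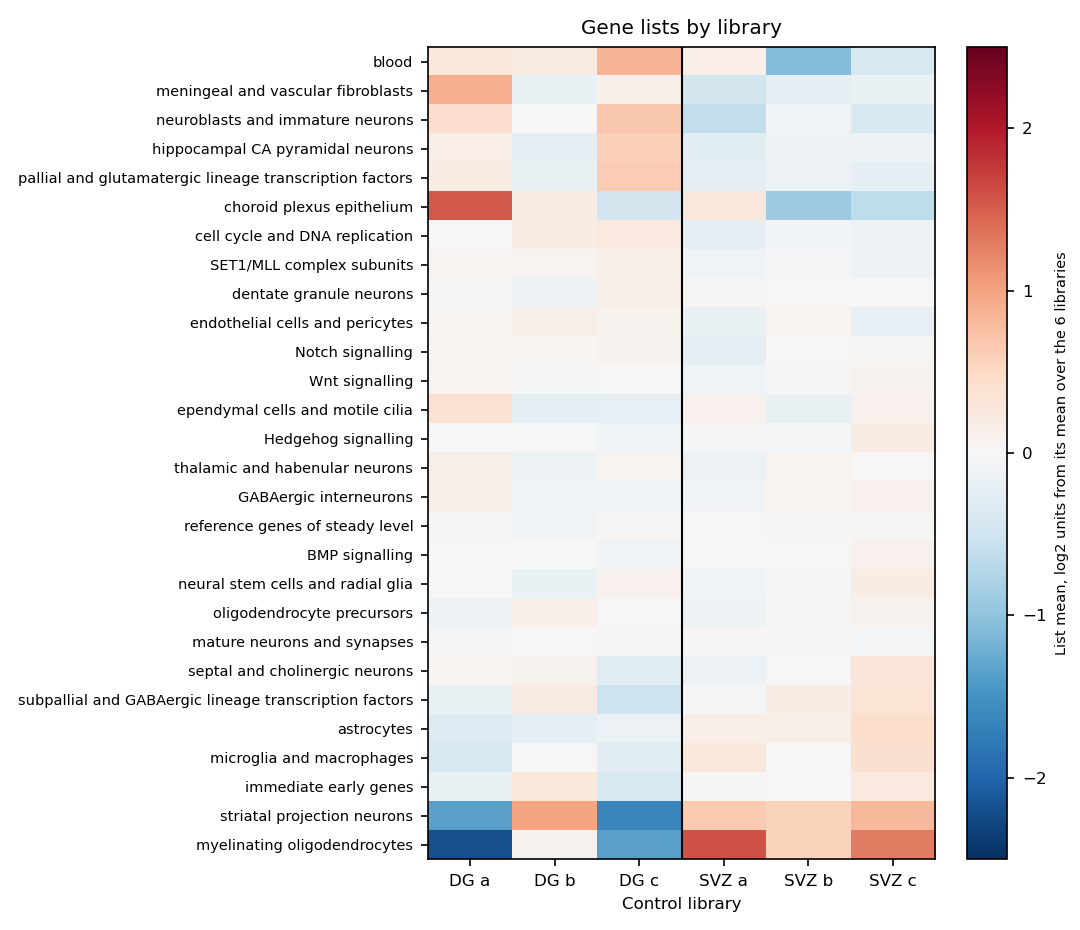
Mean of each gene list in each of the 6 control libraries, in log2 units from the list's mean over the 6. Myelin and striatal genes show the strongest colours, with DG a and DG c low and the library labelled DG b above its DG partners, while choroid plexus genes are high in DG a.

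Niche signalling pathways gave few calls in the 5-library fit. In the Hedgehog list, 2 of 12 were called lower, Ptch1, the receptor that is also a target of the pathway, at 4.45, 5.03 and 4.37 FPKM in the DG against 7.48, 6.47 and 8.65 FPKM in the SVZ (log2 difference -0.66, SE 0.15, limma adjusted p = 0.032), and Hhip, a decoy receptor and target, at 0.276, 0.758 and 0.342 FPKM against 1.97, 1.12 and 1.52 FPKM (-0.95, SE 0.16, adjusted p = 0.017). The target Gli1 was at 0.865, 0.415 and 0.804 FPKM against 0.303, 0.372 and 0.662 FPKM and was not called. In the BMP list of 21, the antagonist Chrd was higher at 5.84, 5.34 and 7.75 FPKM against 3.04, 3.45 and 3.40 FPKM (0.84, SE 0.14, adjusted p = 0.017), while the receptors Bmpr1a and Bmpr1b and the inhibitory Smad7 were lower. In the Notch list of 20, the ligands Jag2 and Dll3 were higher and the targets Hey1 and Hey2 lower. In the Wnt list of 29, the receptor Fzd9 was higher, and the ligand Wnt9a and the receptor Fzd10 lower. The medians of these 4 lists lay between 0.02 and 0.14 with 5 libraries.

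Immediate early genes, which neurons switch on with activity, were split. With 5 libraries, 6 of 16 were called lower, Egr1, Arc, Fos, Nr4a1, Npas4 and Egr2, and 2 higher, Nr4a3 and Fosl2. Egr1 was at 18.7, 63.5 and 17.5 FPKM in the DG against 63.0, 48.6 and 53.6 FPKM in the SVZ (log2 difference -1.56, SE 0.15, limma adjusted p = 0.0034), and the library labelled DG b was the highest of all 6.

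Among subunits of the SET1/MLL histone methyltransferase complexes, to which Dpy30 belongs, 14 of 18 had a positive log2 difference with 6 libraries. Of genes of usually steady level, 9 of 16 did, and the median log2 difference of all genes was 0.00163. Dpy30 was at 8.43, 8.38 and 10.1 FPKM in the DG and at 7.73, 8.25 and 9.43 FPKM in the SVZ (6-library log2 difference 0.07, limma adjusted p = 0.70). Of 18 subunits, 0 were called by limma in either fit, and 10 were higher in every DG library than in every SVZ library (background 18.6%), by small amounts. Kmt2b, a catalytic subunit, was at 11.3, 13.2 and 13.6 FPKM against 6.57, 10.1 and 7.88 FPKM (log2 difference 0.58, adjusted p = 0.072), and Men1, the menin subunit, at 23.6, 20.2 and 22.0 FPKM against 12.9, 17.1 and 16.9 FPKM (0.46, adjusted p = 0.078). The list median was 0.19 with 6 libraries, beside 0.06 for 16 genes of usually steady level. Of the latter, Actb was called higher in the 5-library fit, at 478, 423 and 458 FPKM against 272, 330 and 315 FPKM.

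The KO libraries gave a second comparison of the tissues that shares no library with the first. Genotype differs too, however, and hippocampal markers went both ways between KO DG and KO SVZ. Their values come from the same 2 separately scaled tables, so a difference between those tables would recur here. C1ql2 was at 1.02, 0.485 and 0.168 FPKM in KO DG against 0.352, 3.83 and 3.78 FPKM in KO SVZ, the opposite direction to the controls (log2 difference -1.10, limma adjusted p = 0.13, and -1.68 with adjusted p = 0.0086 without the library labelled SVZ KO a). Prox1 was at 1.93, 1.498 and 1.19 FPKM against 1.54, 1.27 and 1.27 FPKM, and Fibcd1 at 4.85, 1.45 and 1.95 FPKM against 2.62, 1.70 and 2.55 FPKM, with overlap and with log2 differences of 0.05 each. Grp was at 20.4, 10.4 and 7.40 FPKM against 7.27, 1.60 and 2.44 FPKM, above every KO SVZ library in all KO DG libraries. Its log2 difference was 1.55 (limma adjusted p = 0.063), and 2.07 (adjusted p = 0.016) without the library labelled SVZ KO a. Lypd1 of the CA list was called higher in KO DG, at 49.3, 94.5 and 64.2 FPKM against 35.6, 31.5 and 36.4 FPKM (0.89, adjusted p = 0.029). Dkk3, Ociad2 and Rgs14 of that list were called lower. Of the same 15189 genes, 4214 (27.7%) were called between KO DG and KO SVZ, 2299 higher (15.1%) and 1915 lower (12.6%). Without the library labelled SVZ KO a, 4542 (29.9%) were called. In that library Dpy30 was at 8.83 FPKM, within the range of the control SVZ libraries, beside 5.04 and 4.87 FPKM in SVZ KO b and c. In KO DG, Dpy30 was at 6.22, 6.89 and 5.68 FPKM, below every control DG library. Mbp was at 2211 FPKM in SVZ KO a beside 112 and 89.6 FPKM in the other KO SVZ libraries. Leaving out 1 other library gave 4214 genes without DG KO a, 1585 without DG KO b, 2259 without DG KO c, 2154 without SVZ KO b and 1834 without SVZ KO c. Of the 10 genes called in the controls, 9 had the same sign in the KO libraries and 8 were called the same way. Gjb6 was at 9.84, 6.46 and 7.31 FPKM in KO DG against 23.2, 16.7 and 18.5 FPKM in KO SVZ (log2 difference -1.26, limma adjusted p = 0.0071), and Fasn at 61.0, 68.9 and 67.6 FPKM against 35.0, 25.8 and 25.8 FPKM (1.13). Mt2 was at 18.5, 12.0 and 15.1 FPKM against 37.6, 20.4 and 23.4 FPKM, lower in 3 of 3 KO DG libraries than in the KO SVZ libraries but with an adjusted p of 0.058. The exception in sign was n-R5s141, at 8.64, 5.64 and 3.51 FPKM in KO DG against 8.33, 8.61 and 12.8 FPKM in KO SVZ, so that the control SVZ libraries were the low ones of the series. Of the 1657 genes of the 5-library fit, 1447 had the same sign in the KO libraries, 790 were called the same way (47.7% of them and 18.7% of the 4214) and 9 the opposite way. Myelin genes were low in KO DG and in 2 of the 3 KO SVZ libraries, with summed levels of 148, 152 and 156 FPKM in KO DG and of 4196, 315 and 241 FPKM in KO SVZ a, b and c. Striatal genes again set libraries of KO DG apart, with a summed level of 219, 665 and 1335 FPKM in KO DG a, b and c beside 822, 692 and 696 FPKM in KO SVZ. Several other list medians of the controls were near 0 or of opposite sign in the KO libraries. With the 6-library control value first, the astrocyte median was -0.51 and in the KO libraries -0.16 (-0.02 without the library labelled SVZ KO a), and the microglial median was -0.41 and 0.19 (0.27). For CA pyramidal neurons the values were 0.37 and -0.18 (-0.27), for pallial factors 0.46 and -0.01 (0.13) and for subpallial factors -0.21 and 0.29 (0.27). General neuronal genes had a median of 0.00 in the controls and of -0.63 in the KO libraries (-0.52), and genes of interneurons 0.04 and -0.65 (-0.62). Medians above 0 in both comparisons were those of neuroblasts at 0.56 and 0.89 (0.92), of the cell cycle at 0.31 and 0.62 (0.48) and of fibroblasts at 0.49 and 1.61 (1.69), among others. For SET1/MLL subunits the values were 0.19 and 0.09 (0.07). The difference between the control and the KO comparison was not tested.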

How the data were processed

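Libraries were made, per the labels' protocols, from total RNA after repeated polyA selection with an Agilent mRNA kit, and the submitters' processing notes list TopHat2 2.1.0, Partek and CASAVA 1.8.4 beside the build GRCm38 (mm10), with no settings. Whether counting used strand is not stated, and reads of overlapping antisense genes cannot be told apart. The authors deposited, per tissue, FPKM values of 40483 transcripts in 6 columns, and file names give a TMM scaling. An FPKM value is relative to everything else sequenced in its library. Gene identifiers were joined from the deposited comparison tables, whose group means matched within a relative difference of 0.0001. The authors' p-values, fold ratios and pooled means in those tables were not used as results.

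Depth was read from the steps of low FPKM values in genes with 1 transcript. Of these values, 57.9% to 62.4% lay within 0.1 of a whole read in the control libraries (chance 20%), too few to recover reads, and no count model was fitted. After centring, log2(FPKM + 1) values went into limma 3.58.1 (R 4.3.3, intensity trend), adjusted by Benjamini-Hochberg over 15189 genes, with a threshold of 0.05. The tables had been normalized separately and the test across them rests on the centring. Named genes were the 15 with the largest difference in each direction among genes called, without overlap and at 5 FPKM or more in the higher tissue, leaving out Gm and Rik names and sex genes, plus up to 6 members per list. The rule was applied to the 5-library fit, and further members were named, after values were seen. The members and the 29 lists were chosen with earlier results of these data known. Promoters are from RefSeq (GRCm38.p6) and gene positions from GENCODE M21. Some genes that met the rule are not reported here.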

Additional observations from a re-analysis of the deposited data

How the results depend on the processing

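With all 6 libraries 10 genes were called, and leaving out 1 library at a time gave 0 to 1657 genes: 1657 without the library labelled DG b, 686 without SVZ b, 2 without DG c and 0 without DG a, SVZ a or SVZ c. Among other settings, a pseudocount of 0.1 gave 16 genes, a minimum mean of 2 FPKM gave 31, sex as a term gave 3 and a fit of all 4 groups, which adds the KO libraries to the estimate of the spread, gave 2606. With the library labelled DG b left out, a choice made after seeing the data, columns as deposited gave 1558, quantile normalization 1653, sex as a term 2976, a pseudocount of 0.1 gave 1584 and a minimum mean of 2 FPKM gave 1573. The KO count of 4214 ranged from 1585 to 4542 with 1 library left out, namely 1585 without DG KO b, 2259 without DG KO c, 2154 without SVZ KO b and 1834 without SVZ KO c. The cause of these shifts was not tested. Among named genes that were not called with 6 libraries, the sign turned for Prox1 without DG c (-0.12, highest 1.15 without the library labelled DG b), for Gfap without DG c (-0.21) and SVZ b (-0.08, highest 0.32) and for Htr3a without DG a (-0.04, highest 0.77). No paired analysis was possible because the table columns carry a group name and no replicate number. At 26.7 to 46.0 reads per FPKM and kilobase, genes under about 1 FPKM rest on few reads, and the pseudocount of 1 shrinks their log2 differences by construction.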
